A study of Homo sapiens with 6 samples.

Results

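The regions described here are the strong PPARG binding peaks of the esophageal adenocarcinoma cell line OE33 at which no peak was called in a second adenocarcinoma line, Eso26. They are the peaks of the OE33 list on chromosomes 1 to 22 and X whose fold enrichment, the authors' ratio of ChIP signal at the summit to the expected background, was 10 or more and which no Eso26 peak overlapped by even 1 bp. This rule gave 1669 regions of the 9652 OE33 peaks, or 17.6% of the 9496 OE33 peaks on those chromosomes. The regions were chosen by fold enrichment and overlap, so both are given below as descriptions without a test. The study held 6 samples: PPARG chromatin immunoprecipitation followed by sequencing (ChIP-seq) in OE33 and in Eso26, and RNA-seq of each line after transfection with a non-silencing siRNA (control) or an siRNA against PPARG (siPPARG). Per the labels, OE33 was grown in DMEM and Eso26 in RPMI-1640, so line and medium cannot be told apart. The ChIP used a Cell Signaling Technology antibody against PPARG, and the ChIP sample titles name no siRNA. Each group was 1 sample and each line had 1 peak list, so no value below has a replicate check. The series text speaks of triplicates, but the tables used here hold 1 RNA column per condition, and whether it pools cultures is not stated. All intervals are 95% intervals, and none covers differences between replicates. Those of folds, expression levels and ratios cover counting error only. Those of shares and of median widths treat peaks as independent draws, which neighbouring peaks are not.

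PPARG is a nuclear receptor that is activated by fatty acids and their derivatives. It binds DNA as a pair with a retinoid X receptor (RXR), usually at a direct repeat of the sequence AGGTCA with 1 base between the copies, and recruits coactivators such as histone acetyltransferases. It is best known as the factor that drives fat cell formation, and in epithelia it takes part in lipid metabolism and differentiation. A ChIP-seq peak marks DNA that was recovered with the antibody more often than expected, through direct binding or through a partner protein. A region missing from a peak list is one that was not called, which is not the same as one that was not bound.

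Most strong OE33 peaks had no counterpart in Eso26. Of the 2024 OE33 peaks with a fold enrichment of 10 or more, 1669 had no Eso26 overlap, which is 82.5% (Wilson interval 80.7% to 84.1%). The 355 others made up 17.5%, beside 12.2% of the 7472 OE33 peaks under 10 and 13.4% of all OE33 peaks on these chromosomes. The share overlapped by Eso26 did not climb steadily with strength. It was 13.3% (interval 11.4% to 15.3%) for OE33 peaks under a fold of 5 and 8.32% (interval 6.51% to 10.6%) for those just above the threshold, from 10 up. It then stood at 26.9% (interval 22.3% to 32.0%) between 20 and 30, at 47.5% (interval 37.9% to 57.2%) between 30 and 40, and at 76.3% (interval 65.6% to 84.5%) from 40 up. Regions without an Eso26 peak were therefore the large majority among moderately strong OE33 peaks and the minority among the strongest: they numbered 70 of the 175 peaks at 30 or more, 18 of the 76 at 40 or more and 6 of the 31 at 50 or more.

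**Figure D1:**
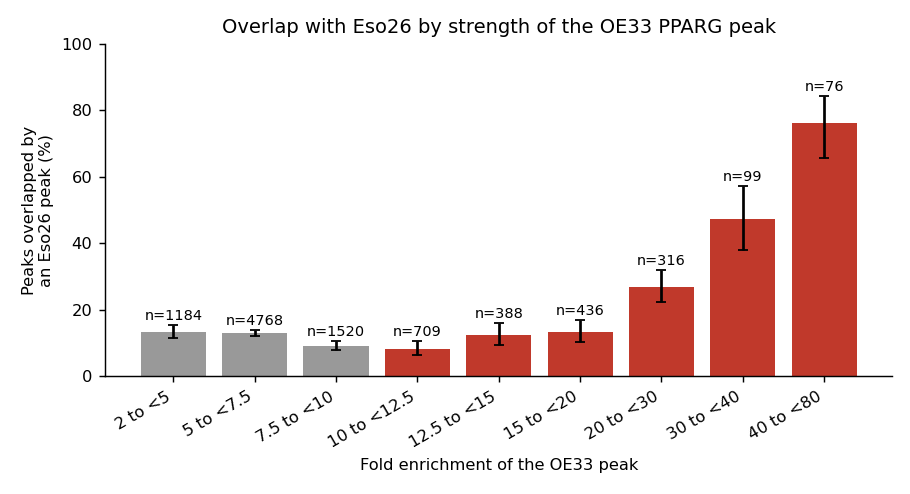
Share of OE33 peaks overlapped by an Eso26 peak (vertical axis, percent) in bins of OE33 fold enrichment (horizontal axis). Red bars are peaks at 10 or more, grey bars weaker peaks, black bars 95% Wilson intervals and n the number of OE33 peaks; the overlapped share runs from 8.32% just above the threshold to 76.3% at 40 or more.

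The height of each peak could be recovered from the deposited values. If the fold enrichment is the summit height plus 1 over the expected background plus 1, and the p-value is the upper tail of a Poisson distribution, as MACS2 defines them, then 1 whole number of fragments and 1 background value fit each peak. For 100% of the peaks in both lists this matched the deposited −log10 p to within 0.0001. The lowest expected background was 0.491 fragments in OE33 and 0.491 in Eso26, so both lists had nearly the same base level. At that level the smallest called summit held 5 fragments in OE33 and 6 in Eso26. The strong OE33-only regions held between 14 and 150 fragments at the summit, with a median of 24 and quartiles of 18 and 32. The lowest of these heights was above the smallest summit called in Eso26 at that lowest background. These are OE33 heights, however, and do not show how tall the same places stood in Eso26. At the 355 strong shared peaks the median height was 37 fragments in OE33 and 13 in Eso26. Whether the calling limit of Eso26 accounts for missing peaks was not tested.

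These heights set how finely the regions can be ranked. The fold enrichment of the 1669 regions ran from 10.0 to 61.1 with a median of 13.5 and quartiles of 11.4 and 18.0. Because fragments are whole, 1290 regions shared both fold and p with at least 1 other region, and the 1669 regions took only 587 distinct pairs of values. With the background held fixed, the Poisson interval of the fold enrichment lay wholly above 10 for 661 regions and included 10 for the other 1008. The lowest fold of a region was 10.02, shared by 11 regions with 15 fragments over a background of 0.597, and the interval of each ran from 5.88 to 16.1. Just outside, 3 OE33-only peaks had a fold of 9.97 with 14 fragments over a background of 0.504, and an interval of 5.75 to 16.3. The regions next to the threshold and the peaks below it therefore differed by far less than their counting error.

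Strong OE33 peaks that Eso26 did share were taller than those it lacked. The 355 shared peaks had a median fold of 20.7 and a median height of 37 fragments in OE33, beside 13.5 and 24 for the OE33-only regions. In Eso26, the overlapping peaks had a median height of 13 fragments (quartiles 10 and 18) and a median fold of 7.78. Of these shared peaks, 337 of 355 were taller in OE33 than in Eso26, and 93 reached a fold of 10 in Eso26. They were chosen by a fold of 10 or more in OE33 alone, which favours greater heights in OE33. The count is therefore not given as stronger binding in OE33. Of all Eso26 peaks on these chromosomes, 64.1% had 13 fragments or fewer. In the reverse comparison, any OE33 peak overlapped 23.8% of the 1508 Eso26 peaks at a fold of 10 or more. It overlapped 16.6% of the 5427 Eso26 peaks under 10.

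The strongest OE33-only region lay on chromosome 11 at chr11:65188339-65190940 in hg19, the build named in the submitters' processing notes and used for all positions here. It had 122 fragments at its summit over a background of 1.01, a fold enrichment of 61.1 (interval 50.8 to 72.8) and a width of 2602 bp, and the nearest Eso26 peak was 115 kb away. The second was chr1:64127966-64129460 at a fold of 57.5 (interval 46.3 to 70.5), with 90 fragments and an Eso26 peak 110 kb away. The third, chr7:91888950-91890474, was taller with 148 fragments, but over a background of 1.66 its fold was 56.1 (interval 47.5 to 65.8). The intervals of these leading regions overlap, so their order is not resolved.

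The region chr7:6881907-6882964 had 82 fragments over the lowest background and a fold of 55.7. The region chr17:27482191-27483296 had a fold of 53.5 over a background of 0.981, and chr6:10463716-10465114 had 82 fragments and a fold of 52.2. All 3 lay at least 26.6 kb from an Eso26 peak. On chromosome 20, chr20:32377237-32378516 had a fold of 47.1 and an Eso26 peak 20.5 kb away, the shortest such distance among the 15 strongest regions, while chr20:44135351-44137779 had a fold of 44.7. The region chr1:12050383-12051603 had a fold of 46.9, and a region on chromosome 8 had a fold of 45.3 with 80 fragments. The region chr9:67292783-67294315 had a fold of 44.9 and belongs to a tight group described below. The last of the 15 were chr6:106820805-106821657 at 43.9, chr1:24592713-24593671 at 42.8, chr7:29762488-29763545 at 42.2 and chr10:105000653-105001946 at 42.0. Of these, the region on chromosome 6 lay farthest from Eso26 binding, at 528 kb. The 15 strongest regions thus came from 9 chromosomes and were not gathered at 1 locus.

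The OE33-only regions were wider than the weaker peaks of the same line. Their median width was 691 bp (interval of the median 676 to 709), with quartiles of 531 and 914 bp, and their summit lay at a median of 49.4% of the width from the left edge. The strong shared peaks had a median width of 910 bp (interval 861 to 948), and the weaker OE33-only peaks one of 315 bp. At equal fold the strong groups were closer in width. Between 20 and 30 the medians were 900 bp without and 934 bp with an Eso26 peak, and from 40 up they were 1164 bp and 1141 bp.

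**Figure D2:**
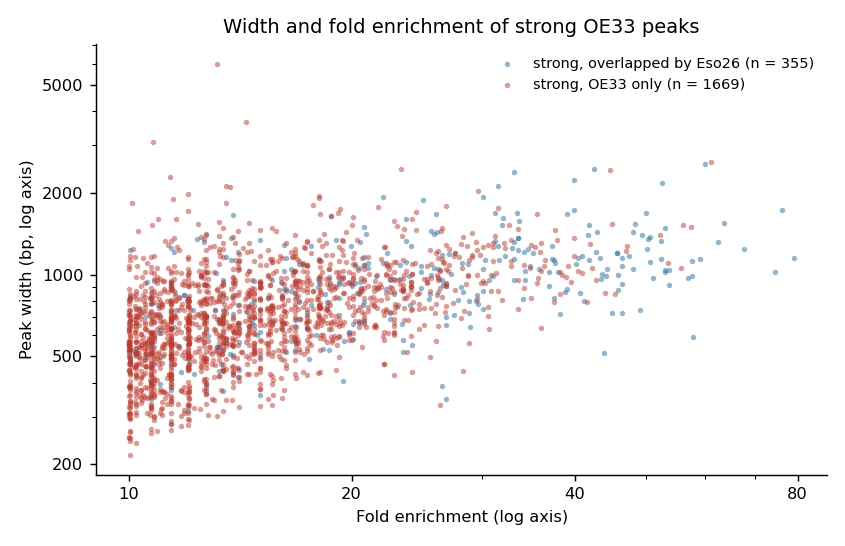
Width (vertical axis, bp, log scale) against fold enrichment (horizontal axis, log scale) of the 2024 strong OE33 peaks; each point is 1 peak, red without and blue with an Eso26 overlap. Both groups widen with fold along the same band, and the 3 widest red points are neighbouring peaks on chromosome 17.

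The 3 widest regions were neighbours on chromosome 17. The region chr17:39681364-39687364 spanned 6001 bp, with 69 fragments over a background of 4.31 and a fold of 13.2 (interval 10.3 to 16.6). Just before it, chr17:39677126-39680773 spanned 3648 bp with 109 fragments over a background of 6.63, and chr17:39703608-39706694 spanned 3087 bp with 70 fragments over a background of 5.57. No Eso26 peak lay within 236 kb of any of the 3. Their folds were modest while their heights were among the largest, over an expected background several times the median of 0.663.

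A raised background was concentrated in parts of 2 chromosomes. Among the OE33-only regions, 25.7% stood at the lowest background, the median background was 0.663 fragments, and 40 regions (2.40%) stood at 2 fragments or more. Of those 40, 17 were on chromosome 7, 14 on chromosome 17 and 4 on chromosome 8. Between 80 and 120 Mb of chromosome 7, the 349 OE33 peaks had a median background of 1.72 fragments, and the 55 Eso26 peaks in the same stretch one of 0.756. Between 35 and 40 Mb of chromosome 17, the medians were 2.82 for 142 OE33 peaks and 0.630 for 24 Eso26 peaks. Outside these stretches, which were chosen after the values had been seen, the medians were 0.663 and 0.630. Among the OE33-only regions, 53 lay in the stretch of chromosome 7 and 18 in that of chromosome 17, with median heights of 39 and 61 fragments beside 23 elsewhere. Their median folds were 13.8 and 11.6 beside 13.5 elsewhere. The sources used here do not name the library behind the background, and the part of the raised background in these calls was not tested. Outside both stretches there were 1598 regions.

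**Figure D3:**
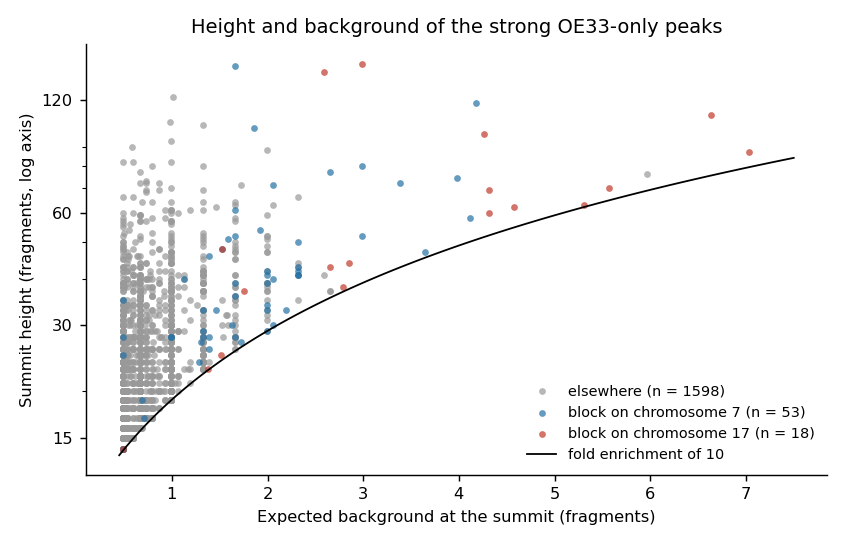
Summit height (vertical axis, fragments, log scale) against expected background (horizontal axis, fragments) of the 1669 strong OE33-only regions. Points are regions, blue between 80 and 120 Mb of chromosome 7 and red between 35 and 40 Mb of chromosome 17, and the line marks a fold enrichment of 10; of the 40 regions at a background of 2 or more, 17 are blue and 13 red.

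Some of the tallest regions stood in these stretches. The tallest of all, chr17:36605112-36606458, had 150 fragments over a background of 2.98 and a fold of 37.9 (interval 32.1 to 44.4). Close to it, chr17:36432290-36433461 had 142 fragments over 2.59 and a fold of 39.9. The region chr7:115857789-115858902 had 118 fragments over 4.18, a fold interval of 19.1 to 27.5, and an Eso26 peak 6.93 kb away. None of these 3 is among the 15 strongest regions by fold, although their heights exceed those of most of the 15. Outside the stretches named above, the highest background was at chr2:33141352-33141670, a peak of 319 bp with 76 fragments over 5.97 and a fold of 11.1.

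Distances to the nearest Eso26 peak were next compared. The median distance from an OE33-only region to the nearest Eso26 peak was 108 kb, with quartiles of 35.5 and 264 kb. An Eso26 peak lay within 10 kb of 157 regions, or 9.41% (Wilson interval 8.10% to 10.9%), within 100 kb of 48.1% and within 1000 kb of 95.3%. For the weaker OE33-only peaks the share within 10 kb was 14.2% (interval 13.4% to 15.1%). For the strong shared peaks, measured to the nearest Eso26 peak that did not overlap them, it was 15.2% (interval 11.8% to 19.3%) with a median distance of 75.4 kb. These intervals treat peaks as independent, which neighbouring peaks are not.

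**Figure D4:**
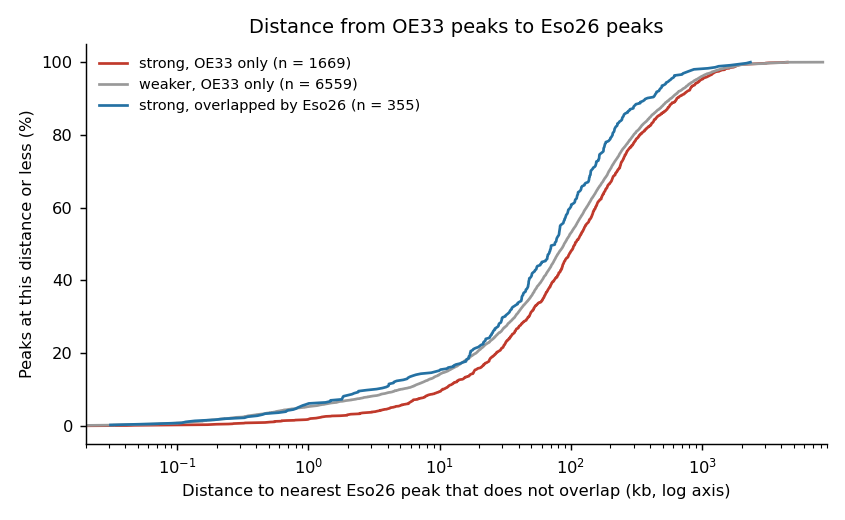
Cumulative share of OE33 peaks (vertical axis, percent) by distance to the nearest Eso26 peak that does not overlap (horizontal axis, kb, log scale), for strong OE33-only (red), weaker OE33-only (grey) and strong shared peaks (blue). The medians are 108, 88.7 and 75.4 kb.

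A few regions only just missed an overlap. An Eso26 peak lay within 1 kb of 31 regions, or 1.86%, beside 5.34% of the weaker OE33-only peaks and 5.92% of the strong shared peaks. The closest case, chr11:116969136-116969988, was 21 bp from one. The region chr5:172198567-172199638 was 41 bp away and chr10:33624493-33625470 was 47 bp away. At the other end, chr9:47257970-47258262 lay 4452 kb from the nearest Eso26 peak with a fold of 10.1, and chr10:53876846-53877364 lay 3057 kb away with a fold of 23.7 (interval 17.2 to 32.0). Distances were counted along the build as it stands, and no peak was removed here for lying near repeats or assembly gaps. Of the 998 windows of 1 Mb that held an OE33-only region, 162 held no Eso26 peak at all, and these carried 257 regions, or 15.4%. The same share was not computed for other OE33 peaks, so it is not given as particular to these regions.

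The regions were spread over every chromosome examined. Chromosome 1 held most, with 151, and chromosome 21 fewest, with 11. Of the strong OE33 peaks on a chromosome, the share without Eso26 overlap was lowest on chromosome 14, at 64.4% (29 of 45, Wilson interval 49.8% to 76.8%). It was 93.6% on chromosome 5 (88 of 94, interval 86.8% to 97.0%), 92.0% on chromosome 10 (104 of 113, interval 85.6% to 95.8%) and on chromosome X 19 of 20 had no overlap (interval 76.4% to 99.1%). On chromosomes 5 and 10 the interval lay above the overall 82.5%, and on chromosome 14 below it; with 23 chromosomes compared, no test was made. On chromosome 7, which holds 53 of its 139 regions in the stretch of raised background, the share was 86.3%, and on chromosome 17 it was 76.4%.

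**Figure D5:**
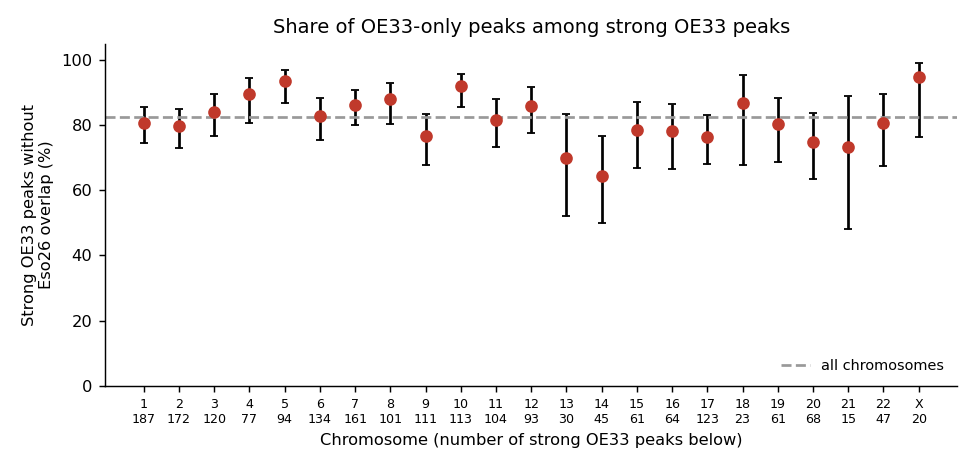
Share of strong OE33 peaks without an Eso26 overlap (vertical axis, percent) on each chromosome (horizontal axis, with the number of strong OE33 peaks below the name); bars are 95% Wilson intervals and the dashed line is the share over all chromosomes, 82.5%. Most intervals include the line; chromosome 14 lies below it and chromosomes 5 and 10 above it.

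Some OE33-only regions had another such region close by. Another OE33-only region lay within 100 kb of 33.7% of them (interval 31.4% to 36.0%) and within 10 kb of 9.05%. The share within 100 kb depends on how many regions the threshold keeps. It was 70.0% at a fold of 5 or more and 19.9% at 15 or more. With gaps of up to 20 kb, 224 regions fell into 102 groups of 2 or more, and 5 of these groups held 4. Counting any OE33 peak as a neighbour, 76.2% had one within 100 kb, beside 74.1% of the strong shared peaks. The shares were 76.3% for the weaker OE33-only and 75.8% for the weaker shared peaks. By this measure, nearness to other peaks was not particular to the OE33-only regions. A peak shared with Eso26 lay within 100 kb of 20.3% of the OE33-only regions and of 25.6% of the strong shared peaks.

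Among windows of 1 Mb, 2 windows on chromosome 7 held the most OE33-only regions, with 8 each. In the window that starts at 73 Mb, the 8 regions ran from chr7:73149113 to 73726462, had folds between 10.5 and 23.1, and stood beside 6 Eso26 peaks. The strongest of them was chr7:73555787-73556741 with 42 fragments (fold interval 16.8 to 31.0), followed by chr7:73725519-73726462 with 49 fragments over a higher background and a fold of 21.5. In the window that starts at 46 Mb, the 8 regions ran from chr7:46071786 to 46949030, and no Eso26 peak was called in the window. The strongest there was chr7:46244900-46246374 with 40 fragments and a fold of 23.5, and the next was chr7:46472212-46472785 at 20.1. Both windows lie outside the stretch of raised background. The median background of their regions was still 1.16 fragments at 73 Mb and 0.862 at 46 Mb, beside 0.663 over all OE33-only regions.

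Another 8 windows held 7 regions each. The one with the highest median fold, 18.2, starts at 52 Mb of chromosome 20. Its regions included chr20:52307788-52308950 with 57 fragments and a fold of 29.1 (interval 22.1 to 37.5) and chr20:52532225-52533147 with 56 fragments and a fold of 28.6. The other 5 had folds between 10.0 and 18.5, and the window held 2 Eso26 peaks. In the window at 36 Mb of chromosome 17, 7 OE33-only regions had a median background of 2.65, and the window held 56 OE33 peaks of all strengths and 3 Eso26 peaks. In the window at 67 Mb of chromosome 9 the median background of the 7 regions was 0.491, the lowest level. In the window at 128 Mb of chromosome 8 the median background of the 7 regions was 1.66. That window held 25 OE33 peaks of all strengths and 0 Eso26 peaks.

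The tightest groups held 4 regions each within 22.4 to 31.8 kb. On chromosome 10, from 114142695 to 114165102, the outer regions were strong: chr10:114142695-114143755 had 80 fragments and a fold of 34.8 (interval 27.7 to 43.2), and chr10:114163922-114165102 had 88 fragments and a fold of 29.8 (interval 23.9 to 36.6). The 2 between them had folds of 10.0 and 10.8. The nearest Eso26 peak was 546 kb away. On chromosome 9, from 67277844 to 67302086, the folds were 13.4, 44.9, 16.1 and 17.4. On chromosome 3, from 171847491 to 171871388, they lay between 11.5 and 13.8, with the nearest Eso26 peak 535 kb away. On chromosome 1, from 32028305 to 32060142, they lay between 10.1 and 13.8, and an Eso26 peak was 1.17 kb away.

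The fifth group, on chromosome 3, held narrow peaks, a feature singled out after the values were seen. Whether these peaks mark protein binding was not tested: without an hg19 annotation it could not be checked whether the row follows the exons of a gene, as carried-over cDNA or plasmid would, so their folds and heights may not measure PPARG binding. The region chr3:12421059-12421483 was 425 bp wide with 52 fragments and a fold of 22.8 (interval 17.1 to 29.7), and chr3:12447254-12447693 was 440 bp wide with 46 fragments and a fold of 28.3 (interval 20.9 to 37.5). Between them, chr3:12422753-12423084 was 332 bp wide with a fold of 15.6, and chr3:12434027-12434323 was 297 bp wide with a fold of 10.1. Of the 301 OE33-only regions at a fold of 20 or more, 4 were under 450 bp wide, and 2 of these 4 belong to this group. The OE33-only regions between 20 and 30 had a median width of 900 bp, and 5% of them were 574 bp or narrower. The same row went on with 2 stronger OE33 peaks that do overlap Eso26 peaks, chr3:12458125-12458712 (588 bp, 95 fragments, fold 57.7) and chr3:12475285-12475798 (514 bp, 66 fragments, fold 43.8). Among the 58 strong shared peaks at a fold of 40 or more, these were the only 2 under 600 bp. In Eso26 the overlapping peaks had 10 and 8 fragments, with folds of 6.75 and 4.89. The row held 6 OE33 peaks over 54.7 kb, and with the source of its signal unchecked, the lack of a called Eso26 peak at 4 of them is not given as a difference in binding.

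The RNA-seq libraries held 16866996 to 23019840 counts each. Levels are given as CPM, counts scaled to library size, with Poisson intervals, and were scaled within each line, so levels are not tested between lines. PPARG (ENSG00000132170) stood at 127 CPM in the OE33 control (2156 counts, interval 122 to 133) and at 11.4 CPM in the Eso26 control (259 counts, interval 10.1 to 12.9). With siPPARG it stood at 17.3 CPM in OE33, a ratio to control of 0.136 (interval 0.120 to 0.153), and at 9.64 CPM in Eso26, a ratio of 0.843 (interval 0.698 to 1.02). PPARG counts were thus far lower in the OE33 library with siPPARG than in its control, while the Eso26 interval included a ratio of 1. The RXR partner genes were present in both controls, RXRA at 132 CPM in OE33 and 62.1 in Eso26 and RXRB at 30.9 and 42.4, while RXRG had 0 counts in all 4 libraries. Both lines carried columnar epithelial markers, with KRT18 lowest in the Eso26 control at 426 CPM and EPCAM lowest in the OE33 control at 519 CPM among KRT8, KRT18, KRT19, EPCAM and CDH1. The 3 immune markers were at 0 CPM in both controls, the 4 squamous markers at most 9.75 CPM, the 4 mesenchymal markers at most 5.69 CPM and the 4 fat cell markers at most 0.0882 CPM, with ADIPOQ, FABP4 and LEP at 0 counts in all 4 libraries. KRT13, a keratin of squamous epithelium, was the squamous marker with the highest level, and in OE33 it had 165 counts in the control and 32 with siPPARG, a ratio of 0.181 (interval 0.120 to 0.266). It was the 1 squamous marker kept in OE33 and was past 2-fold lower; its part in the other OE33 changes was not tested.

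The peaks could not be assigned to genes here, because no hg19 annotation was used, so the expression of pathway genes stands beside the regions without a link to any of them. In OE33, 1.04% of the 10527 genes kept were 2-fold higher with siPPARG and 0.418% were 2-fold lower; these are folds between single libraries. Of 17 kept textbook PPAR targets, 0 were past 2-fold, 14 were lower and 3 higher, with a median log2 fold of -0.12 beside -0.0075 over all kept genes. This tally and those below count direction alone, so genes whose interval included a ratio of 1 are in them. The share of all kept genes that stood lower was not computed. AQP3, a water and glycerol channel, stood at 0.566 times the control (interval 0.549 to 0.583). ANGPTL4, a secreted inhibitor of lipoprotein lipase, stood at 1.84 (interval 1.44 to 2.37). The list of fatty acid synthesis had 18 kept members; 12 stood below and 6 above the control, 0 of them past 2-fold, at a median log2 fold of -0.07. Of the 10 kept coregulator genes 5 were lower and 5 higher, and of the receptors only PPARG was past 2-fold. PPARD stood at 1.48 times the OE33 control (interval 1.41 to 1.55) and PPARA at 0.910 (interval 0.842 to 0.983). In Eso26, where 0.0575% of genes were 2-fold higher and 0.144% lower, 0 members of these lists were past 2-fold. There, 12 of 15 kept PPAR targets were higher and 3 lower, at a median log2 fold of 0.10, and 11 of 17 kept fatty acid synthesis genes were higher and 6 lower, at a median of 0.14, beside -0.0073 over all kept genes. Most kept PPAR targets and fatty acid synthesis genes were thus lower in OE33, and most were higher in Eso26. This rests on 1 pair of libraries per line, untested, and genes were not matched between the lines. Of 11 kept coregulators in Eso26, 9 were lower and 2 higher. ELF3, KLF5, GATA6 and EHF, another fixed list, were all lower in OE33, while in Eso26 2 were lower and 2 higher. Because the interval of the PPARG ratio in Eso26 included 1, these directions are not given as opposite responses to lower PPARG.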

How the data were processed

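PPARG ChIP-seq peaks were measured in 2 cell lines and gene counts in 4 RNA-seq libraries. The submitters' processing notes name Trim Galore, STAR, Bowtie, Picard, MACS2 and hg19, without roles; the peak names hold the word bwa, and the sources used here do not name the control library, duplicate handling or pooling. Each deposited peak carries a fold enrichment (a ratio), a −log10 p, a −log10 q and a score from the authors' caller. RNA values are the deposited raw counts per gene.

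Starts were converted to count from 1. Overlap meant at least 1 bp (checked with bedtools 2.31.1). Height and background were solved from fold and −log10 p (scipy 1.17.1), which was tested on simulated data. Shares have Wilson intervals. Counts were scaled with TMM (edgeR 4.0.16), with a prior count of 2 and a filter of 5 CPM in at least 1 library; repeated identifiers were summed; ratios have exact binomial intervals. DESeq2 1.42.0 size factors were an alternative.

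The regions, gene lists and tests were chosen with earlier results of these data known. Named regions were the 15 strongest, those next to the threshold, the 3 widest and those in the 3 fullest windows of 1 Mb (ties broken by median fold); others were chosen after their values were seen. Named genes were the receptors and partners and members of fixed lists. No genome of the peaks' build was used, so motifs, sequences and nearby genes were not analysed here.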

Additional observations from a re-analysis of the deposited data

Results flagged for a closer look

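Strong OE33 peaks also lay on sequences outside chromosomes 1 to 22 and X, which the definition of the regions leaves out; among the 6 samples none is labelled as a ChIP control. There were 74 such peaks, of which 46 had no Eso26 overlap. The unplaced sequence chr9_gl000199_random alone held 53 of the 74, with a median fold of 20.6 and a highest fold of 61.0, and 22 of these 53 were overlapped by an Eso26 peak.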

How the results depend on the processing

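The number of regions and their median width depend mainly on the fold threshold. At a fold of 5 or more there were 7201 regions with a median width of 387 bp, 70.0% had another region within 100 kb and 12.7% an Eso26 peak within 10 kb; at 15 or more these values were 679 regions, 853 bp, 19.9% and 6.92%. With an overlap of 50% of the OE33 peak required for sharing, there were 1898 regions with a median width of 727 bp, 36.4% had a neighbouring region and 20.3% a near or partly overlapping Eso26 peak. Leaving out regions with an Eso26 peak within 1 kb gave 1638 regions, of which 7.69% had an Eso26 peak within 10 kb. Another region lay within 10 kb of 9.05% and within 1 Mb of 80.3%, and an Eso26 peak within 100 kb of 48.1%. Added after seeing the data, the demand that the counting interval of the fold lie above 10 left 661 regions. The other 20 of 36 values stayed within their interval or within 1.5 times the count, among them those without the 40 regions of raised background (1629 regions) and without the stretches of chromosomes 7 and 17, both also added after seeing the data, those with touching peaks merged, and the PPARG log2 fold in OE33 (-2.87, from -2.88 to -2.86 in its alternatives). The planned analyses of the DR1 motif and of genes near the regions were not run, for want of an hg19 genome and annotation. No paired analysis was possible because each group holds 1 sample and the labels give no replicate numbers. Depth limits the weaker regions: at the lowest background a summit of 14 fragments allows a fold from 5.80 to 16.4.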
